A study of Rattus norvegicus with 4 samples.

Results

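The genes described here make serine, pass its carbon into folate metabolism, or encode the serine incorporators, a family of membrane proteins. They were followed in rat oligodendrocyte precursor cells (OPCs) after silencing of the G protein-coupled receptor GPR17. The set holds 10 genes: Phgdh, Psat1 and Psph for serine synthesis, Shmt1, Shmt2 and Mthfd2 for one-carbon transfer, and Serinc1, Serinc2, Serinc3 and Serinc5. Members were found by matching the RefSeq accession of each non-control array probe to a gene symbol. Probes were matched for 9 of the 10 genes, 13 probes in all. For Shmt1 no probe could be matched, so it was not analysed here. The 9 genes stand among 11656 genes with a tested probe, and all 13 probes were well above background on each of the 4 arrays.

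OPCs came from the pooled cerebral cortices of Sprague-Dawley rats at postnatal day 2 and grew for some days with PDGF and bFGF before the switch to differentiating medium with thyroid hormone. The control group (siNEG, n = 2) received 50 nM of a pool of non-targeting RNA, and the silenced group (siGPR17, n = 2) received 50 nM of a siRNA pool against the rat Gpr17 transcript. Both were delivered with Lipofectamine RNAiMAX, and cells were lysed 48 h later, at day 2 of maturation. The labels call the 2 samples of a condition independent and do not say whether they came from separate litters or cultures, so the spread between them may be partly technical. The comparison asks which transcripts differ when GPR17, a receptor that is high in immature oligodendrocytes and is lost as they mature, is silenced.

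Serine is made from a glycolytic intermediate in a short branch: PHGDH oxidizes 3-phosphoglycerate, PSAT1 adds the amino group, and PSPH removes the phosphate. Serine hydroxymethyltransferases (SHMT1 in the cytosol, SHMT2 in mitochondria) then turn serine into glycine and hand its carbon to folate, and MTHFD2 carries that carbon on through the mitochondrial folate pathway. Serine is also the head group of phosphatidylserine and the starting amino acid of all sphingolipids, both of them components of myelin. Serine incorporators are multipass membrane proteins, named for a proposed role in the supply of serine to these lipids and later also known for lipid scrambling and for the restriction of retroviruses. Rat Serinc5 was first described in oligodendrocytes, under the name TPO1.

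Each array gave the brightness of a spot in the Cy3 channel, and the signals printed here are intensities scaled so that the 75th percentile of every array is the same. Between 26997 and 28244 probes were well above background on an array, and 0 non-control spots were saturated. Over tested probes, replicate arrays differed with a SD of 0.37 (log2) in control and 0.29 in silenced OPCs. All 4 arrays sat on 1 slide, with the control arrays in one column and the silenced arrays in another, so column and treatment cannot be told apart. Gpr17 itself gave 1107 and 1113 on the control arrays and 652 and 639 on the silenced arrays, a 1.72-fold lower signal (log2 difference -0.78, standard error 0.085). Of the markers of the labelled cell type, 12 of 12 oligodendrocyte lineage genes passed the detection filter, with a summed signal of 549439 to 621049 in control and 599286 to 612919 in silenced OPCs. Of the markers of other cells, 11 of 12 astrocyte, 9 of 12 microglial, 10 of 12 neuronal and 5 of 12 endothelial, fibroblast and mural genes also passed. Their summed signals in control and silenced OPCs were 129293 to 146407 against 132634 to 133919 for astrocytes, 2701 to 4007 against 2707 to 3167 for microglia, 7384 to 8727 against 6872 to 7134 for neurons and 438 to 543 against 580 to 598 for the last list. Gjb6, Csf1r, C1qc, Ptprc, Slc17a7, Slc17a6, Pecam1, Cldn5, Dcn, Lum, Pdgfrb, Rgs5 and Vtn were above background on 0 arrays. These sums are carried by a few bright probes, such as Mbp and Aldoc. Of the oligodendrocyte lineage genes, 4 had a log2 difference above 0 and 8 below (median -0.17). By gene, 5 astrocyte markers were above 0 and 6 below (median -0.03, with Aqp4 at -1.35 and Gfap at -0.61). For microglia 1 marker was above and 8 below (median -0.19), and for neurons 0 were above and 10 below (median -0.24). Gad2, 1 of those 10, passed the detection filter only through the control arrays. It therefore carries no weight in that count, and the neuronal median includes it. Of the last list, 5 were above and 0 below (median 0.33). The brightest markers were Mbp, Bcas1 and Olig2 of the oligodendrocyte lineage, Aldoc, Ndrg2 and Slc1a3 of astrocytes, Cx3cr1, Cd68 and P2ry12 of microglia, Map2, Tubb3 and Rbfox3 of neurons and Col1a2, Cdh5 and Acta2 of the last list. The part of such cells in the values below was not tested.

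The 3 serine synthesis genes differed little between the groups, Shmt2 was higher in silenced OPCs, and 2 of the 4 serine incorporators, Serinc2 and Serinc5, were lower. A gene was called where its fold was 1.5 or more and its adjusted p was under 0.07, the thresholds of the study's methods, in limma's moderated test with Benjamini-Hochberg adjustment over all 28016 tested probes. None of the members was called (0 of 9), nor was any other gene, so that the background is 0% of genes. A single probe without a matched gene passed, which is 0.00357% of probes. At an unadjusted p under 0.05, limma had 1 member higher and 2 lower, against 7.43% and 8.73% of all genes tested (16.2% in either direction), and that count of 3 became 1 without either silenced array. The methods' t-test, run on the same values, gave 0 members past the thresholds and 2 at an unadjusted p under 0.05. Silenced and control arrays were fully separated in 5 of the 9 members, a state shared by 53.4% of all genes, with 3 members higher (28.1% of genes) and 2 lower (25.3%). The count of 5 was 8 without siGPR17 replicate 1 and 9 under spike-in scaling, in which the added control transcripts set the level of each array. The median log2 difference over the 9 members was 0.01, the same as the median of 0.01 over all genes tested, and only Serinc2 reached a fold of 1.5, which 2.65% of genes did in the lower and 2.43% in the higher direction (5.08% in either). With 2 arrays against 2, the smallest two-sided p of an exact permutation test is 0.333 for a single gene.

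**Figure D1:**
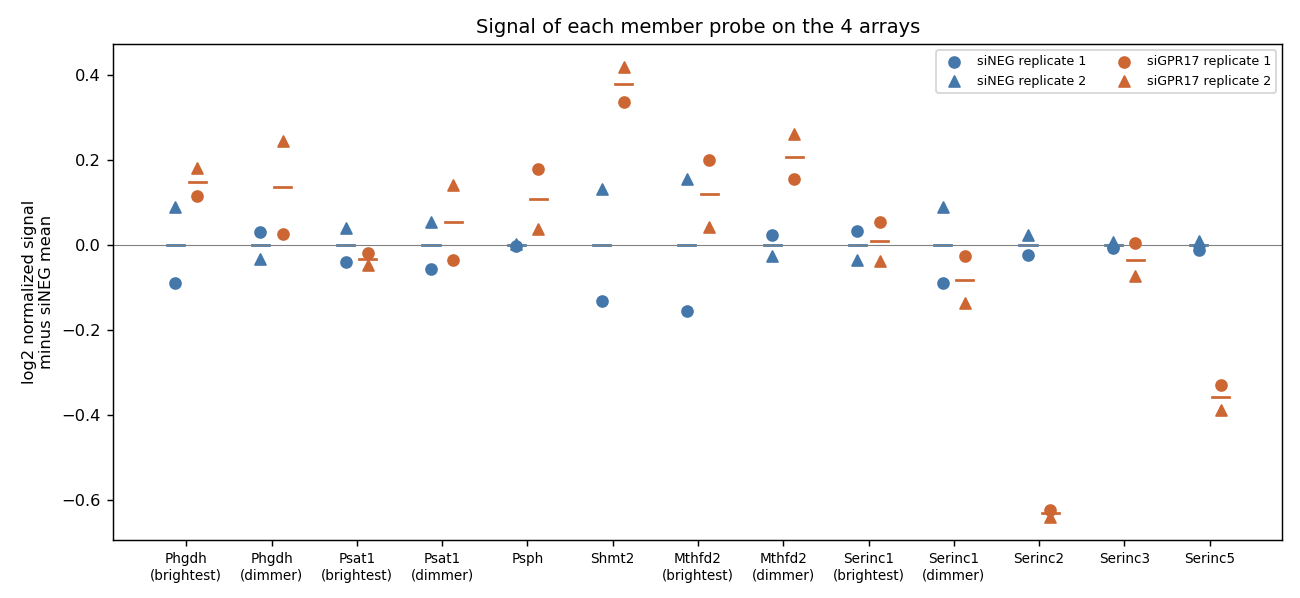
Log2 normalized signal of each of the 13 probes on the 4 arrays, relative to the control mean of that probe. Circles are replicate 1, triangles replicate 2 and bars group means. Serinc2 and Serinc5 show tight pairs far apart, whereas the control arrays of Shmt2 and Mthfd2 lie well apart from each other.

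Phgdh, the first enzyme of serine synthesis, was measured by a probe printed in 10 spots. Its signal was 28348 and 32114 on the control arrays and 32712 and 34211 on the silenced arrays. Both silenced arrays lay above both control arrays, but the upper control array was close to the lower silenced one. The log2 difference was 0.15 (standard error 0.11, 95% interval -0.14 to 0.44, adjusted p = 0.52 in limma). A dimmer probe of the same transcript gave 1041 and 996 in control and 1037 and 1207 in silenced OPCs, a difference of 0.14 with overlapping groups. Leaving out siNEG replicate 1 lowered the change of the brighter probe to 0.06, and leaving out siNEG replicate 2 raised it to 0.24.

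The spots of Phgdh show how much of this spread arises within an array. On siNEG replicate 1 the 10 spots ran from 26427 to 29720, with a median of 28552, and on siNEG replicate 2 from 30554 to 34212, with a median of 32172. On the silenced arrays 9 spots each were free of outlier flags, from 31187 to 33689 (median 32933) and from 32793 to 35231 (median 34146). Spots of 1 array thus differed with a SD of 0.034 to 0.056 on the log2 scale, while the 2 control arrays differed from each other by 0.18. The gap between the 2 controls was therefore wider than the scatter of spots, and it was larger than the difference of 0.15 between the groups.

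Psat1, the aminotransferase, showed no shift that stood out from its error. It gave 42754 and 45202 in control and 43411 and 42564 in silenced OPCs, so that the groups overlapped. The log2 difference was -0.03 (95% interval -0.28 to 0.21), an interval that reaches a fold of 1.5 on neither side, and the sign turned under spike-in scaling, where the difference was 0.14 beside a median of 0.18 over all genes. Its dimmer probe gave 235 and 254 against 239 and 270, a difference of 0.05. Psph, the phosphatase that completes the branch, gave 2402 and 2408 in control and 2723 and 2471 in silenced OPCs. Both silenced arrays were above the closely matched controls, and the interval of the difference of 0.11 included 0 (standard error 0.097, 95% interval -0.16 to 0.37). Without siGPR17 replicate 1 the difference was 0.04, and without siGPR17 replicate 2 it was 0.18. Over the 3 enzymes the median difference was 0.11, with 2 higher, 1 lower and 0 past the thresholds in limma. RefSeq annotates 6 pseudogenes of Phgdh and 1 of Psat1 in the rat genome, and whether these probes also bind their transcripts is not known here.

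Of the one-carbon genes, Shmt2, the mitochondrial enzyme that splits serine to glycine, was the member with the largest positive difference. Its probe, printed in 2 spots, gave 4166 and 5003 on the control arrays and 5768 and 6111 on the silenced arrays. Both silenced arrays exceeded both control arrays, and the controls differed from each other by 0.26 on the log2 scale. The change was 1.30-fold, a log2 difference of 0.38 (standard error 0.13, 95% interval 0.03 to 0.73), with an unadjusted p of 0.039 and an adjusted p of 0.28 in limma. It remained positive in every setting tried, from 0.25 without siNEG replicate 1 to 0.55 under spike-in scaling, and its adjusted p ran from 0.098 with normexp to 0.80. Both spots of each array were nearly equal, 4164 and 4168 on siNEG replicate 1 and 4955 and 5052 on siNEG replicate 2, while the noise between arrays was not measured apart from the samples. Shmt2 also has 1 annotated pseudogene.

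Mthfd2, the dehydrogenase and cyclohydrolase that follows in mitochondria, gave 4218 and 5230 in control and 5396 and 4840 in silenced OPCs. The groups overlapped, with siNEG replicate 1 below the other arrays, and the log2 difference of 0.12 had a 95% interval of -0.28 to 0.52. Without siNEG replicate 1 the difference was -0.03, and without siNEG replicate 2 it was 0.28. A dimmer Mthfd2 probe gave 194 and 188 in control and 213 and 229 in silenced OPCs, a log2 difference of 0.21 (standard error 0.093, adjusted p = 0.35 in limma), without overlap. Taken array by array, the difference of Shmt2 exceeded that of Mthfd2 by 0.26 (exact permutation p = 0.333, the smallest that 4 arrays allow). The standard error of that gap, 0.12, comes from these values alone, without limma's moderation. This pair was set up with the values known, and it uses the brighter Mthfd2 probe, whose difference of 0.12 was smaller than the 0.21 of the dimmer one.

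**Figure D2:**
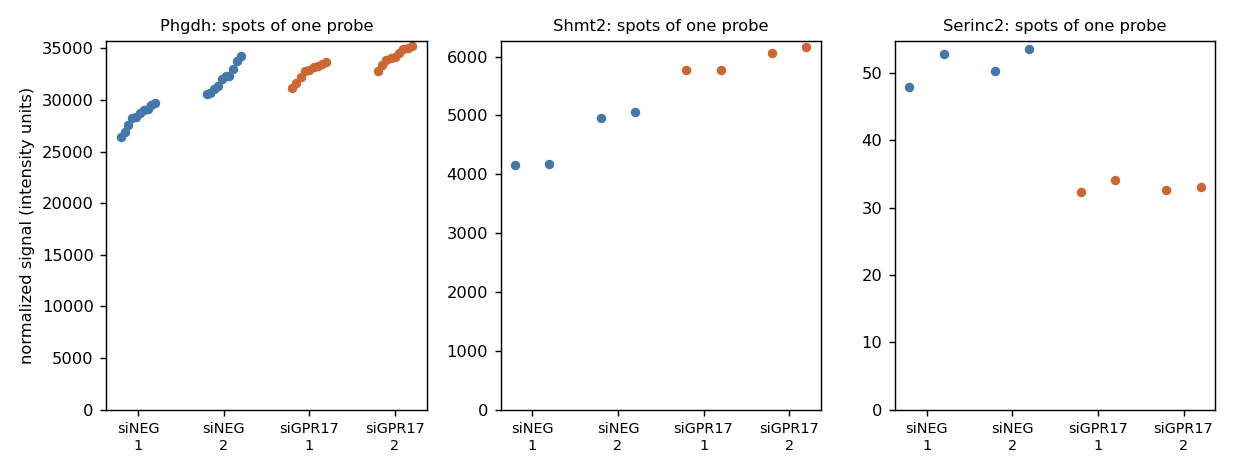
Normalized signal of single spots, in intensity units, of the Phgdh, Shmt2 and Serinc2 probes on each array, sorted within an array. Spots of an array lie close together, and in Phgdh and Shmt2 the spots of the 2 control arrays do not overlap.

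None of the 4 serine incorporators passed the thresholds, and the differences of Serinc5 and Serinc2 were negative with intervals that left out 0, while those of Serinc1 and Serinc3 were near 0. Serinc5 gave 42876 and 43536 on the control arrays and 34412 and 33045 on the silenced arrays. Replicates were within 0.022 and 0.059 of each other on the log2 scale, and the groups stood far apart by comparison. The signal was 1.28-fold lower in silenced OPCs, a log2 difference of -0.36 (standard error 0.087, 95% interval -0.59 to -0.12, unadjusted p = 0.0135 and adjusted p = 0.23 in limma). Its adjusted p came nearest to the threshold with limma's trend and robust options, at 0.0746, and reached 0.76 without siGPR17 replicate 2. Omitting any single array left the difference between -0.39 and -0.33. Under spike-in scaling it was -0.19, beside a median of 0.18 over all genes. Markers of the oligodendrocyte lineage, neurons and microglia lay mostly below 0, with medians of -0.17, -0.24 and -0.19. The lineage genes were mixed, from -0.67 for Mog to 0.32 for Mbp, with 4 above 0 and 8 below. The neuronal median includes Gad2, which was well above background only on the control arrays. Astrocyte markers had a median of -0.03, and the endothelial, fibroblast and mural markers one of 0.33. The part of any of these cells in the values of Serinc5 and Serinc2 was not tested. In RNA from whole cultures, fewer cells that express a gene and less of its transcript per cell cannot be told apart.

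Serinc2 was dim on this array but gave the largest relative difference among the members. Its 2 spots averaged 50.3 and 51.9 in control and 33.2 and 32.8 in silenced OPCs. All 4 spots of the control arrays (47.9 to 53.6) were above all 4 of the silenced arrays (32.3 to 34.1). The signal was 1.55-fold lower, a log2 difference of -0.63 (standard error 0.086, unadjusted p = 0.0016 and adjusted p = 0.209 in limma), which 94.7% of tested probes did not reach in size. Before background correction the spots read from 69.8 to 95.8 units over a local background of 48.5 to 50.5, so the spots exceeded their background by less than the background itself. With normexp and an offset of 50 in place of the software's background subtraction, the difference was -0.19. That offset pulls dim signals together by construction, and the size of the difference for Serinc2 hence depends on the correction, whereas its direction held in every setting tried.

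Serinc1 and Serinc3, bright probes both, showed no such difference. Serinc1 gave 8852 and 8445 in control and 8984 and 8431 in silenced OPCs, and the silenced pair spanned the control pair (log2 difference 0.01, 95% interval -0.24 to 0.26). The sign of Serinc1 turned with normexp and with quantile normalization, and its dimmer probe, at 3566 and 4034 against 3725 and 3449, gave -0.08. Serinc3 gave 9990 and 10093 in control and 10076 and 9548 in silenced OPCs, a log2 difference of -0.03 (95% interval -0.28 to 0.21). Under spike-in scaling it was 0.13, still below the median of 0.18 over all genes there. Both intervals leave out a fold of 1.5 in either direction. Taken array by array, Serinc5 was lower relative to Serinc1 by a log2 difference of -0.37 (standard error 0.048) and relative to Serinc3 by -0.32 (standard error 0.010). These pairs were set up with the values known, and the exact permutation p of each is 0.333. Their standard errors come from 2 values a group without limma's moderation, so they cannot be set beside those of single genes. Over the 4 incorporators, 1 was higher and 3 lower, 0 passed the thresholds in limma, and the median log2 difference was -0.20.

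**Figure D3:**
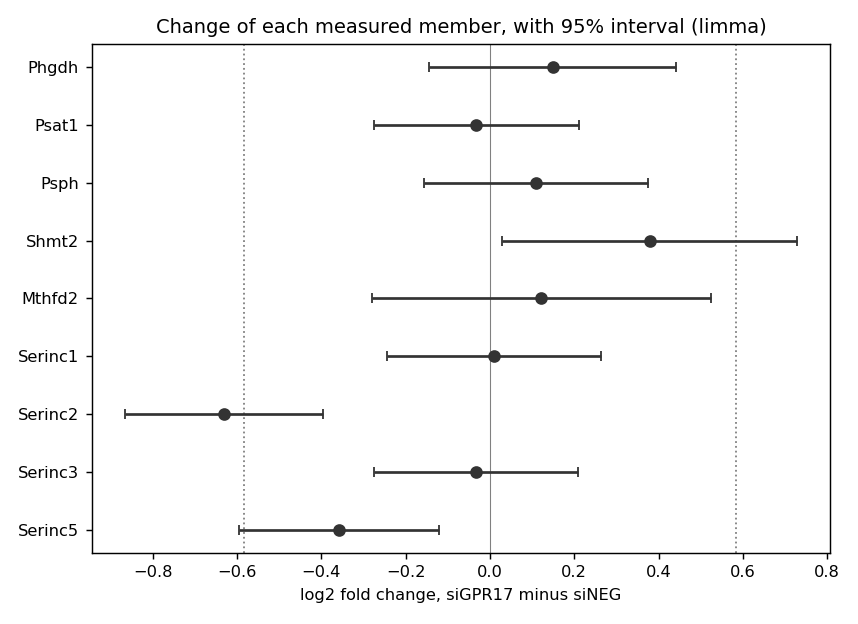
Log2 fold change of silenced against control OPCs for the brightest probe of each of the 9 measured genes, with the 95% interval of limma. Dotted lines mark a fold of 1.5. The intervals of Shmt2, Serinc2 and Serinc5 leave out 0, before any adjustment for the number of probes.

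The stretches before the transcript starts of the 3 members whose intervals leave out 0 are shown so that the genes behind the lower and the higher signals can be set side by side. They are the 250 bases upstream of the start that RefSeq gives on the assembly GRCr8, read 5′ to 3′ along the gene, and capitals mark the GC box GGGCGG or its reverse complement. Serinc5 lies at chr2:25581721-25581970 on the plus strand, Serinc2 at chr5:147898798-147899047 on the minus strand and Shmt2 at chr7:65249568-65249817 on the minus strand.
Serinc5: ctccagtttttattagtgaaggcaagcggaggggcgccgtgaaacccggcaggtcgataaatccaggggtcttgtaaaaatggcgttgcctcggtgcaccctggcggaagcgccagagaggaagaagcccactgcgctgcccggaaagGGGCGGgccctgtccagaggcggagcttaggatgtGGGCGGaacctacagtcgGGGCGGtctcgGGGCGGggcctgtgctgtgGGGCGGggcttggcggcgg
Serinc2: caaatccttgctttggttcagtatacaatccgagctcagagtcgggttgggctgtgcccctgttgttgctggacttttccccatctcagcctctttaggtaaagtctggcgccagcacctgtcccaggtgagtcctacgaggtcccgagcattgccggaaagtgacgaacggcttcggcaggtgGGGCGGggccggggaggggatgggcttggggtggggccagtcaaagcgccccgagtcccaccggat
Shmt2: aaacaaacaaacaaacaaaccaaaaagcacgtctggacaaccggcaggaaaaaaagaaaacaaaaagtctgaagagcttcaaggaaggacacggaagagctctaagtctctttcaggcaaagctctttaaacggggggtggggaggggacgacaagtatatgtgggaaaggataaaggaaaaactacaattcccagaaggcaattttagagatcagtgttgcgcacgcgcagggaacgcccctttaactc
The Serinc5 stretch holds 5 GC boxes and 21 CpG dinucleotides, the Serinc2 stretch 1 and 14, and the Shmt2 stretch 0 and 9. In the same stretch of the other members, Shmt1 holds 4 GC boxes, Serinc3 2, Serinc1, Psat1 and Psph 1 each, and Phgdh and Mthfd2 0. In windows of 300 bases, from 250 before to 50 after the start, GGGCGG occurs on either strand in 7 of the 10 genes and in 33.1% of 33469 rat promoters. The core of the C/EBP-ATF response element, TGATGNA, occurs in 0 of the 10 and in 12.1% of all. The E-box CACGTG occurs only in Shmt1 among the 10, against 6.42% of all. The GC box was added after the values were seen. These are matches of letters in a window and say nothing about binding.

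**Figure D4:**
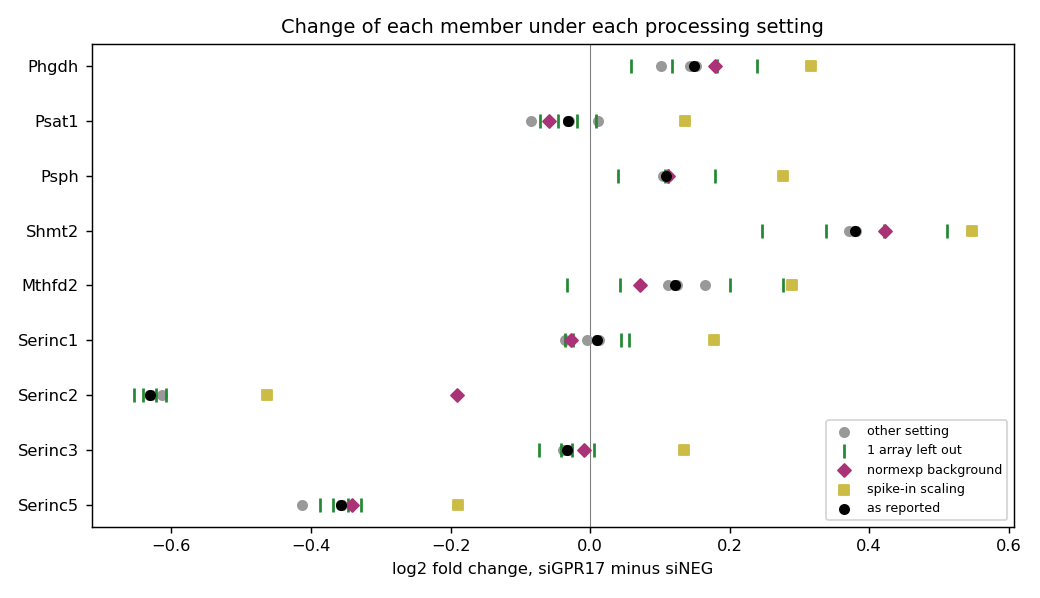
Log2 fold change of each measured member under every processing setting. Black points are the values as reported, green ticks leave out 1 array each, purple diamonds use normexp and yellow squares spike-in scaling, which moves the median of all genes up, and grey points are the other settings. Serinc2 moves furthest, towards 0 with normexp, and Serinc5, Serinc2 and Shmt2 stay on one side of 0 throughout.

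For other genes of folate metabolism, 16 of 17 listed were tested, 11 with a difference above 0 and 5 below, where 48.0% of all genes lay below, with a median log2 difference of 0.16 against 0.01 over all genes, and 0 passed the thresholds in limma. At an unadjusted p under 0.05 limma had 3 higher and 0 lower, against 7.43% and 8.73% of all genes. Fpgs is 1 of the 3 and 1 of the 11 above 0, and it passed the detection filter only through the silenced arrays. It therefore carries no weight in either count, and the median of 0.16 includes it. Mthfd1l, the mitochondrial formate-producing enzyme that acts after MTHFD2, gave 1176 and 1214 in control and 1683 and 1705 in silenced OPCs, a log2 difference of 0.50 (standard error 0.086, adjusted p = 0.209 in limma). The pairs were tight and far apart, and omitting any single array gave 0.48 to 0.53. Mthfd2l, the second mitochondrial dehydrogenase and cyclohydrolase, gave 397 and 423 in control and 552 and 500 in silenced OPCs, a log2 difference of 0.36. Fpgs, which adds glutamates to folate, was not well above background on either control array, where it read 15.1 and 15.5, and it read 24.5 and 18.7 on the silenced arrays, so no fold is given. Its difference was smaller without siGPR17 replicate 1 and with normexp.

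Genes of the methionine cycle, which takes up carbon carried by folate, and of transsulfuration were evenly divided. Of 12 genes, 10 were tested, 5 on each side of 0 (median 0.05), and limma placed 0 past the thresholds. In limma an unadjusted p under 0.05 was reached by 0 higher genes and 1 lower gene, against 7.43% and 8.73% of all genes. That gene was Bhmt, a betaine-dependent methyltransferase, at 527 and 558 in control and 446 and 457 in silenced OPCs, a log2 difference of -0.26. Cth and Mtr had larger differences, 0.67 and 0.52, that each rested on 1 array of a dim probe and were 0.17 and 0.25 with normexp. Omitting siNEG replicate 1 gave 0.28 for Cth and omitting siNEG replicate 2 gave 1.06, and Mtr was -0.12 without siGPR17 replicate 1 and 1.17 without siGPR17 replicate 2. Of the glycine cleavage genes, Dld was at 0.24, Gcsh at 0.00 and Amt at -0.28, and limma called 0 of these 3. At an unadjusted p under 0.05 limma had 1 higher (Dld) and 0 lower, against the same 7.43% and 8.73%. For Amt, omitting siNEG replicate 1 gave -0.17. Gldc, the decarboxylase of that system, was above background on 0 arrays.

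A list of genes that use serine for lipids, turn it to D-serine or break it down held 12 genes, of which 8 were tested, 3 above 0 and 5 below, with a median of -0.20. The tested subunits of serine palmitoyltransferase, which starts sphingolipid synthesis, were Sptlc1 at -0.16, Sptlc2 at -0.67, Sptssa at -0.26, and Sptssb, described below. The groups did not overlap in Sptlc1, Sptlc2 and Sptssa, a state shared in the lower direction by 25.3% of all genes. Srr, which makes D-serine, was at -0.24. In limma 0 passed the thresholds, and at an unadjusted p under 0.05 there were 1 higher and 2 lower, against 7.43% and 8.73% of all genes. Sptssb is 1 of the 2 lower and 1 of the 5 below 0, and it passed the detection filter only through the control arrays. It therefore carries no weight in either count, and the median of -0.20 includes it. Sptlc2, a catalytic subunit, gave 261 and 287 in control and 193 and 154 in silenced OPCs, a log2 difference of -0.67 (standard error 0.15, adjusted p = 0.216 in limma). Its other probe gave -0.21, and with the trend and robust options its adjusted p was 0.059. Sptssb, a small subunit of the same enzyme, gave 35.4 and 33.1 in control OPCs and was not well above background on either silenced array, where it read 20.4 and 18.1, so no fold is given. With normexp its difference was smaller. Ptdss1 and Ptdss2, which exchange serine into phosphatidylserine, were at 0.09 and 0.03. Sdsl, a protein related to serine dehydratase, gave 3870 and 4103 in control and 5921 and 6046 in silenced OPCs, a log2 difference of 0.59 (standard error 0.089, adjusted p = 0.209 in limma). Both silenced arrays lay far above both controls, and its adjusted p was 0.023 with the trend and robust options.

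Among 10 serine and glycine transporters, 9 were tested and the median was 0.00, from 4 genes above 0 and 5 below. None was called by limma (0 of 9). An unadjusted p under 0.05 was reached by 2 higher and 2 lower genes, against 7.43% and 8.73% of all genes. Slc7a10, the exchanger of small neutral amino acids also known as Asc-1, gave 85.5 and 90.7 in control and 55.2 and 64.8 in silenced OPCs, a log2 difference of -0.56, which was -0.28 with normexp. Slc38a1, a glutamine and serine carrier, was at -0.37, with -0.26 when siNEG replicate 2 was omitted. The brighter of the 2 Sfxn2 probes gave 0.45 and the other -0.59, so no direction can be given for that gene. Sfxn1, which carries serine into mitochondria, was at 0.31.

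ATF4, a transcription factor of the amino acid response, is known to drive serine synthesis and mitochondrial folate genes. All 20 genes listed for that response were tested, 15 above 0 and 5 below, and their median was 0.09. None was called by limma (0 of 20). An unadjusted p under 0.05 was reached by 3 higher and 0 lower genes, against 7.43% and 8.73% of all genes. Atf4 itself gave 24618 and 27709 in control and 25470 and 23679 in silenced OPCs, with overlapping groups (log2 difference -0.09). Asns, asparagine synthetase, gave 3867 and 4352 in control and 5483 and 5520 in silenced OPCs, a log2 difference of 0.42 (standard error 0.10, adjusted p = 0.226 in limma). Slc7a11, the cystine carrier, gave 71.0 and 75.1 in control and 95.2 and 112 in silenced OPCs, a log2 difference of 0.50, lower at 0.31 with normexp. Trib3, a pseudokinase of the same response, was dim, at 40.4 and 28.5 in control and 44.7 and 44.1 in silenced OPCs. Its log2 difference of 0.39 was 0.21 with normexp. It was 0.14 when siNEG replicate 2 was omitted and 0.64 when siNEG replicate 1 was. Of 15 cell cycle genes, 13 were tested, 2 above 0 and 11 below (median -0.19), and limma called 0 of them. Their part in the values of Shmt2 or Mthfd1l was not tested.

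**Figure D5:**
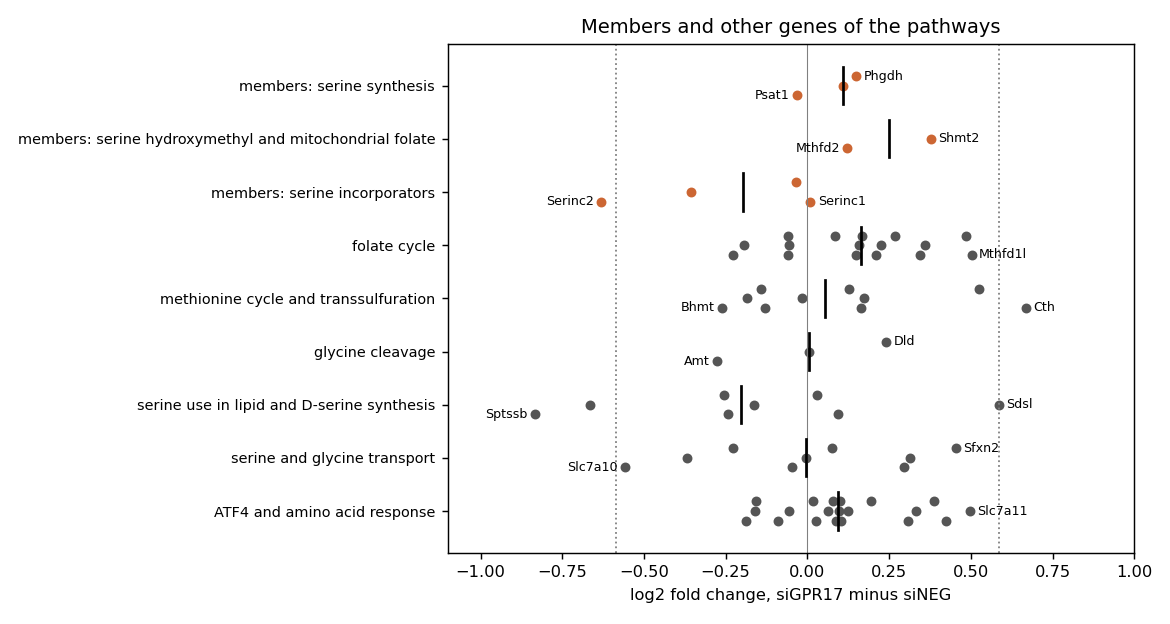
Log2 fold change of every tested gene of the set (orange) and of the related lists (grey), silenced against control OPCs, with the median of each list as a black bar and the lowest and highest gene labelled where the text describes it. Dotted lines mark a fold of 1.5. Members lie within the range of the related lists, from -0.63 for Serinc2 to 0.38 for Shmt2. Sptssb and Fpgs are plotted and enter the medians, although each was not well above background throughout 1 group.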

How the data were processed

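Gene expression was measured on 4 one-color Agilent SurePrint rat arrays, 2 of siNEG and 2 of siGPR17 OPCs, grouped by the sample titles. The authors deposited the spot intensities of Feature Extraction 10.7.3.1, corrected for background within the array and not normalized between arrays, together with raw spot and background medians. From the deposited intensities, log2 values of unflagged non-control spots were averaged per probe here, and the 75th percentile of each array was subtracted. Normexp was run on the deposited spot medians instead of the planned spot means. Of 45598 non-control probes, 45565 had a value on all arrays, and the 28016 well above background on at least 2 arrays were fitted with limma 3.58.1 (lmFit and eBayes, R 4.3.3). The adjusted p is by Benjamini-Hochberg over all of them. A gene is represented by its brightest tested probe. The number of arrays limits the precision. For a probe not well above background on either array of a group no fold is given in the text.

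Probes were named by matching accessions to RefSeq genes of GRCr8, used for names only, since the array headers name another build. Promoter sequences and their positions come from RefSeq on GRCr8, and all 10 genes had one. The members and gene lists were chosen with earlier results of these data known. The genes named are the members, Gpr17, any list gene past the thresholds and the 3 with the largest absolute difference in each related list and the 3 brightest of each marker list, and others were named after their values were seen. No likeness of patterns was ranked over 4 arrays. On simulated data of the 28016 probes with 2 arrays a group, limma called 72 of 100 probes changed by 2 on the log2 scale. It also called 27 of 100 changed by 1, and 6 unchanged ones. Noise was drawn for each probe on its own from the spread it showed on these arrays, with 200 probes changed. Effects shared across an array were not simulated, so these counts need not hold for the data.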

Additional observations from a re-analysis of the deposited data

How the results depend on the processing

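No member passed the thresholds in any of the settings run (0 of 9 throughout). The count of probes past them, 1 as reported, was 242 with normexp and 420 with limma's trend and robust options. It was 0 with spike-in scaling, with no filter on dim probes, with probes above background on all arrays and with the unpaired t-test. With the replicate number as a block it was 0 as well. No named gene was called as reported, so the block had no call to remove, and it added none. The replicate numbers also mark the row of the slide, but deviations of same-numbered arrays correlated at -0.065 over probes, so the numbers were not taken to pair the samples. The median over the members was 0.18 under spike-in scaling, which moved the median of all genes to the same 0.18, and the count of members without overlap was 9 there. With an array left out that count lay between 6 and 8, as a lone array overlaps less readily.

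Over 389 comparisons of a named gene's log2 difference with its value as reported, 368 kept their direction and side of the thresholds and 4 became calls, of Gpr17 (-0.66 with normexp, -0.78 with trend and robust options), Sptlc2 and Sdsl. In 17 the sign turned, some of them under spike-in scaling, which raises the median of all genes by more than those differences. Serinc1 gave -0.028 with normexp, -0.0042 with quantile normalization and -0.036 with the mean of its probes, and -0.036 to 0.055 on omitting single arrays. Psat1 gave 0.14 under spike-in scaling, 0.011 with the mean of its probes and -0.073 to 0.0078 on omitting single arrays. Serinc3 gave 0.13 under spike-in scaling and -0.073 to 0.0050 on omitting single arrays. On omitting single arrays Mthfd2 gave -0.033 to 0.28 and Mtr -0.12 to 1.17. Gcsh gave -0.021 with normexp, -0.083 with quantile normalization, and -0.071 to 0.079 on omitting single arrays, and Sfxn2 gave -0.066 with the mean of its probes. The cause of the single sign changes was not tested. A block for slide or scan was not run, since all arrays shared both. Signal over background limits dim probes, among them Serinc2, Sptssb, Fpgs, Cth, Mtr, Trib3, Slc7a10 and Slc7a11.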
